A study of Homo sapiens with 12 samples.

Results

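The Krüppel-like factors KLF2, KLF3, KLF4, KLF6, KLF7, KLF9, KLF10, KLF11, KLF13 and KLF16 were followed across 12 RNA libraries of MV-4-11 cells. They are a list of family members outside the erythroid set, and they were taken by gene symbol: 10 of the 20036 genes in the table. The list is not complete: KLF5 and further members are among the other KLF and SP factors below. All 10 reached at least 1 FPKM, read fragments scaled by gene length and library size, in at least 3 of the 12 libraries and so entered the fit over 11149 genes. MV-4-11 is a human acute myeloid leukaemia line with a FLT3 internal tandem duplication and a KMT2A fusion, labelled as bone marrow of genotype WT. It was grown in 4 groups of 3 libraries: HPA-12, which blocks CERT, the protein that carries ceramide from the endoplasmic reticulum to the Golgi; crenolanib, which inhibits the FLT3 receptor kinase; the combination of both; and DMSO, the solvent. Treatment lasted 48 h according to the series, while doses and the duration of DMSO are not stated in the labels. A single cell line stands for the disease, and nothing tells whether replicate libraries are separate cultures; every p-value therefore refers to library spread alone, possibly of technical origin.

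The libraries differed between groups in ways that touch every level below. Estimated depth averaged 12.4 M reads in HPA-12, 10.1 M in crenolanib, 4.69 M in combination and 14.5 M in DMSO libraries. The 13 mitochondrially encoded genes held 21.6%, 36.0%, 62.2% and 19.8% of the summed FPKM in these same groups, and the median log2 difference of all tested genes from DMSO was 0.09 in HPA-12, -0.04 in crenolanib and -0.62 in the combination. The FPKM were rescaled by median ratios, by upper quartiles, or with mitochondrial genes left out. The last divided each library by the share of its summed FPKM held by all other genes. It did not equalise library totals: the summed FPKM averaged 497316 in combination and 258315 in DMSO libraries. Under these 3 scalings the combination median was -0.11, -0.02 and 0.19. Results of the combination are therefore given with their range over these 3 scalings where a call or a direction moved. The line's 12 myeloid markers summed to 814 to 865 FPKM in HPA-12, 1557 to 1594 in crenolanib, 1256 to 1290 in combination and 1997 to 2088 in DMSO libraries. CD14, 1 of the 12, averaged only 0.319 FPKM in DMSO. Of the 12, 7 were lower in HPA-12, 2 higher and 7 lower in crenolanib, and 3 higher and 6 lower in the combination than in DMSO. Under the scalings these were 2 to 5 higher and 4 to 6 lower in crenolanib, and 4 higher and 5 or 6 lower in the combination. The 12 erythroid markers moved with the groups too: they summed to 221 to 226 FPKM in HPA-12, 4328 to 4591 in crenolanib, 27141 to 27565 in combination and 78.2 to 85.0 in DMSO libraries, with 7, 11 and 12 of 12 higher than in DMSO. The 6 lymphoid markers summed to 6.50 to 7.75 FPKM in HPA-12, 3.39 to 4.15 in crenolanib, 2.37 to 5.68 in combination and 3.32 to 5.12 in DMSO libraries, and of the 2 tested 1 was lower in the combination, a call lost with mitochondrial genes left out. The 7 stromal and epithelial markers summed to 62.8 to 65.8 FPKM in HPA-12, 27.1 to 31.1 in crenolanib, 10.4 to 19.8 in combination and 15.3 to 17.1 in DMSO libraries. PECAM1, which myeloid cells also express, made most of the sum outside the combination, where it was at 6.02, 7.21 and 5.78 FPKM; combination library 2 also held 6.81 FPKM of COL1A1 and 3.36 FPKM of COL1A2, collagen genes of fibroblasts. Of the 3 tested, 2 were higher in HPA-12, 1 was higher in crenolanib and 2 were lower in the combination, where under the scalings 4 were tested, 1 was higher and 0 were lower. EPCAM averaged 0.0114 FPKM in HPA-12 and 0 elsewhere. Beside these marker counts, 27.7% of all tested genes were higher and 23.0% lower than in DMSO in HPA-12, as deposited. For crenolanib these shares were 27.4% and 28.9%, and for the combination 14.8% and 56.5%. The part that depth, mitochondrial share or erythroid markers have in the results was not tested beyond the scalings. In bulk RNA, fewer cells of a type and less RNA per cell cannot be told apart.

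Krüppel-like factors are transcription factors with zinc fingers at the C terminus that bind GC boxes and CACCC elements, so members can compete for the same sites. What differs is the N terminus: KLF2, KLF4, KLF6 and KLF7 carry activating regions that work with acetyltransferases, KLF3 recruits the corepressor CtBP, and KLF9, KLF10, KLF11, KLF13 and KLF16 bind the SIN3A corepressor. In blood cells they are known for quiescence (KLF2), monocyte differentiation (KLF4), macrophage activation (KLF6) and responses to TGF-beta and glucocorticoid (KLF10, KLF9).

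The RefSeq promoter set used here held a window for 8 of the 10 members, all but KLF3 and KLF10. In these, 250 bases before each start were searched on both strands for the family's own sites. These members had 12 windows, 4 of them of KLF7 and 2 of KLF11. GGGCGG, the GC box, stood in 8 of the 12 and CACCC in 4, against 42.6% and 54.7% of all 35116 RefSeq windows. The stretches below are those of some members that had a window, which KLF10 did not. They are from GRCh38.p14, read 5′ to 3′ along the gene, with GGGCGG or CACCC on either strand in capitals: KLF2, chr19:16324576-16324816, plus strand, KLF6, chr10:3785282-3785459, minus strand, KLF13, chr15:31326585-31326834, plus strand, and KLF16, chr19:1863580-1863829, minus strand.
KLF2: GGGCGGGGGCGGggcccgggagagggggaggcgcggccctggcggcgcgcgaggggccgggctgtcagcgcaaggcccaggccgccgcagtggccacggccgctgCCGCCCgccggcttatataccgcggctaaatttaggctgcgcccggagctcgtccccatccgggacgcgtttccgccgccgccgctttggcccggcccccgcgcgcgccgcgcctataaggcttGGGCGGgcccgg
KLF6: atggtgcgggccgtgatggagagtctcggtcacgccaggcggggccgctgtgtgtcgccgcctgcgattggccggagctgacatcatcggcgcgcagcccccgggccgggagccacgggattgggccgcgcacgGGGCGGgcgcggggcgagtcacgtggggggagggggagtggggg
KLF13: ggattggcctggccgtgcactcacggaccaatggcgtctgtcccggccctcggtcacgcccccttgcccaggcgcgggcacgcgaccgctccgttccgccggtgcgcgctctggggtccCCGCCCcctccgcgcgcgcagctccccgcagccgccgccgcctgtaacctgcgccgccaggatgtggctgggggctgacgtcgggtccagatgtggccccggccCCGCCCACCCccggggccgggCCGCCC
KLF16: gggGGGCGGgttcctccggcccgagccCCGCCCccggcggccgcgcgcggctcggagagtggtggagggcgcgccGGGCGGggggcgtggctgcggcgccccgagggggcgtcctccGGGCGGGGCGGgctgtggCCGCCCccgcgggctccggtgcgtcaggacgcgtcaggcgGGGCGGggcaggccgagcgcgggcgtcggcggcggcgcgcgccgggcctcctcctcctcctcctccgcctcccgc
The KLF16 stretch held 7 GC boxes, the KLF2 stretch 4, the KLF13 stretch 3 with 1 CACCC, and the KLF6 stretch 1. The KLF2 and KLF6 stretches, 241 and 178 bases long, are only parts of the windows searched. The whole KLF6 window held 2 GC boxes. Positions below count from the RefSeq start, which for KLF2 and KLF6 lies beyond the last printed letter. Over all RefSeq windows, the other elements searched were scarcer. CACGTG, the E-box read by MYC and USF factors, stood in 4 of the 12, 1 each of KLF11, KLF4, KLF6 and KLF7, at 182, 157, 97 and 186 bases before the start, against 6.34% of all windows. A full cyclic AMP element, TGACGTCA, stood in the other window of KLF11 (1.65% of all windows), and KLF2 alone held a MEF2 site, ctaaatttag, 120 bases before its start (2.80% of all windows). A match describes the letters only.

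Summed over the 10 factors, the level was highest under crenolanib and lowest in DMSO. The sum was 285 ± 5.75 FPKM in HPA-12, 373 ± 9.27 in crenolanib, 209 ± 10.0 in combination and 127 ± 3.34 in DMSO libraries (SD, n = 3 each), with no overlap between groups. The make-up of the sum differed as well. KLF13 made 55.7% of it in HPA-12, 23.1% in crenolanib, 12.7% in combination and 51.7% in DMSO libraries, while KLF10 made 12.8%, 31.3%, 43.6% and 8.60%. KLF6 made 14.9% in HPA-12, 28.7% in crenolanib, 20.2% in combination and 4.69% in DMSO libraries. The leading factor was KLF13 in HPA-12 and DMSO cells and KLF10 in crenolanib and combination cells, and these shares are unaffected by the scaling of a library. The sum itself is not: under the 3 scalings it averaged 301 to 345 FPKM in the combination, above the 227 to 249 FPKM of HPA-12, and DMSO stayed lowest at 98.5 to 113 FPKM.

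**Figure D1:**
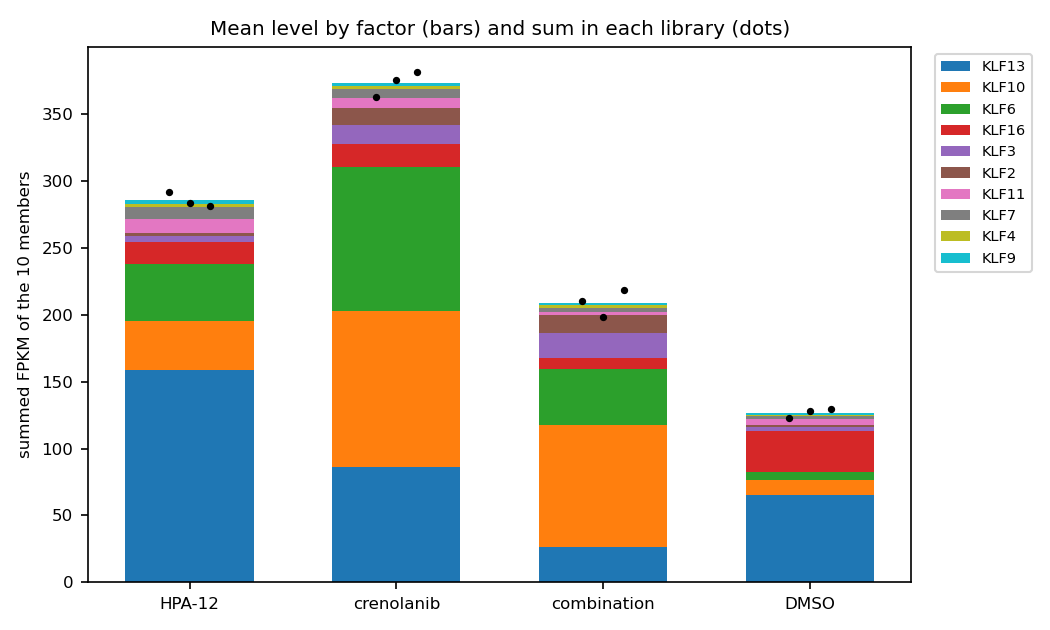
Stacked bars show the mean FPKM of each of the 10 factors in HPA-12, crenolanib, combination and DMSO cells, and dots the sum in each of 3 libraries per group. The sums average 285, 373, 209 and 127 FPKM, and the KLF13 layer is the thickest in HPA-12 and DMSO while KLF10 is the thickest in crenolanib and combination.

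Among the activators, KLF6 had the largest log2 difference from DMSO in each treated group. It is a widely expressed factor, induced early by growth and stress signals. KLF6 stood at 43.4, 44.2 and 40.3 FPKM in HPA-12, 108, 105 and 108 FPKM in crenolanib, 35.8, 42.4 and 48.3 FPKM in combination, and 5.75, 6.64 and 5.43 FPKM in DMSO libraries. Every treated library lay far above every DMSO library, crenolanib was highest, and HPA-12 and combination overlapped. The crenolanib mean was 18.0 times the DMSO mean. On the log2(FPKM + 1) scale, KLF6 was higher than in DMSO by 2.66 (SE 0.10, limma adjusted p = 3.96e-09) in HPA-12, 3.97 (SE 0.10, adjusted p = 7.34e-11) in crenolanib and 2.63 (SE 0.10, adjusted p = 9.82e-10) in the combination. Between combination and HPA-12 it differed by -0.02 (95% interval -0.25 to 0.20, adjusted p = 0.843), which became 0.68 to 1.01 and called under the 3 scalings.

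KLF2, a factor that keeps lymphocytes quiescent and endothelium unactivated, followed crenolanib. It was at 2.60, 2.09 and 2.66 FPKM in HPA-12, 11.7, 12.6 and 13.8 FPKM in crenolanib, 18.1, 8.53 and 13.5 FPKM in combination, and 1.51, 1.86 and 1.70 FPKM in DMSO libraries. Libraries with crenolanib, alone or combined, lay above all others, and the 3 HPA-12 libraries lay just above the 3 DMSO libraries. KLF2 was higher than in DMSO by 2.35 (SE 0.21, adjusted p = 2.59e-06) in crenolanib and 2.37 (SE 0.21, adjusted p = 8.90e-07) in the combination. Its difference under HPA-12, 0.36 (SE 0.21), missed the threshold at adjusted p = 0.173. It passed in fits without the combination libraries (adjusted p = 0.00614), without combination library 2 (0.0329), of HPA-12 and DMSO alone (0.00480) and with a spread per group (0.00129). In this order, these fits called 8136, 6606, 8672 and 8619 of all 11149 genes in HPA-12 against DMSO, where the main fit called 5652.

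KLF4, which drives monocyte differentiation and is one of the reprogramming factors, was low throughout. Its levels were 3.05, 2.58 and 2.56 FPKM in HPA-12, 1.47, 2.33 and 3.23 FPKM in crenolanib, 2.17, 3.23 and 2.55 FPKM in combination, and 1.01, 0.926 and 0.693 FPKM in DMSO libraries. The treated groups overlapped one another and lay wholly above DMSO. The differences from DMSO were 0.99 (adjusted p = 0.00113) in HPA-12, 0.80 (adjusted p = 0.00402) in crenolanib and 0.96 (adjusted p = 8.20e-04) in the combination, each with an SE of 0.19. With a pseudocount of 0.1 they were 1.55, 1.27 and 1.49, and under the 3 scalings that of the combination was 1.43 to 1.67. No pair of treated groups passed the test, the largest gap being -0.19 for crenolanib against HPA-12 (95% interval -0.61 to 0.23). Under the 3 scalings the combination was higher and called, by 0.50 to 0.75 against HPA-12 and 0.63 to 0.73 against crenolanib.

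KLF7, an activator best known from the developing mouse nervous system, rose with either compound alone. It measured 7.96, 9.07 and 8.14 FPKM in HPA-12, 6.64, 7.18 and 6.29 FPKM in crenolanib, 1.56, 3.38 and 3.46 FPKM in combination, and 2.04, 2.23 and 2.02 FPKM in DMSO libraries. Single-agent libraries were all above the rest, and the combination libraries straddled DMSO, with library 1 below it. KLF7 was higher than in DMSO by 1.60 (SE 0.19, adjusted p = 2.84e-05) in HPA-12 and 1.31 (SE 0.19, adjusted p = 1.17e-04) in crenolanib. The combination differed from DMSO by 0.25 (95% interval -0.16 to 0.67, adjusted p = 0.250), by 0.51 (adjusted p = 0.00101) without combination library 1, and by 0.76 to 1.04, called, under the 3 scalings.

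KLF3, the CtBP-dependent repressor, was the one factor whose 4 groups were all apart in the order combination, crenolanib, HPA-12, DMSO. Levels were 4.60, 5.39 and 4.47 FPKM in HPA-12, 13.4, 14.0 and 15.1 FPKM in crenolanib, 17.2, 18.9 and 19.97 FPKM in combination, and 2.29, 2.35 and 2.54 FPKM in DMSO libraries. No group overlapped another. KLF3 was higher than in DMSO by 0.78 (SE 0.11, adjusted p = 8.58e-05) in HPA-12, 2.16 (SE 0.11, adjusted p = 1.88e-08) in crenolanib and 2.53 (SE 0.11, adjusted p = 1.52e-09) in the combination. Combination exceeded crenolanib by 0.38 (adjusted p = 0.00788), with adjusted p = 0.140 when each group had its own spread, and by 0.99 to 1.10 under the 3 scalings.

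**Figure D2:**
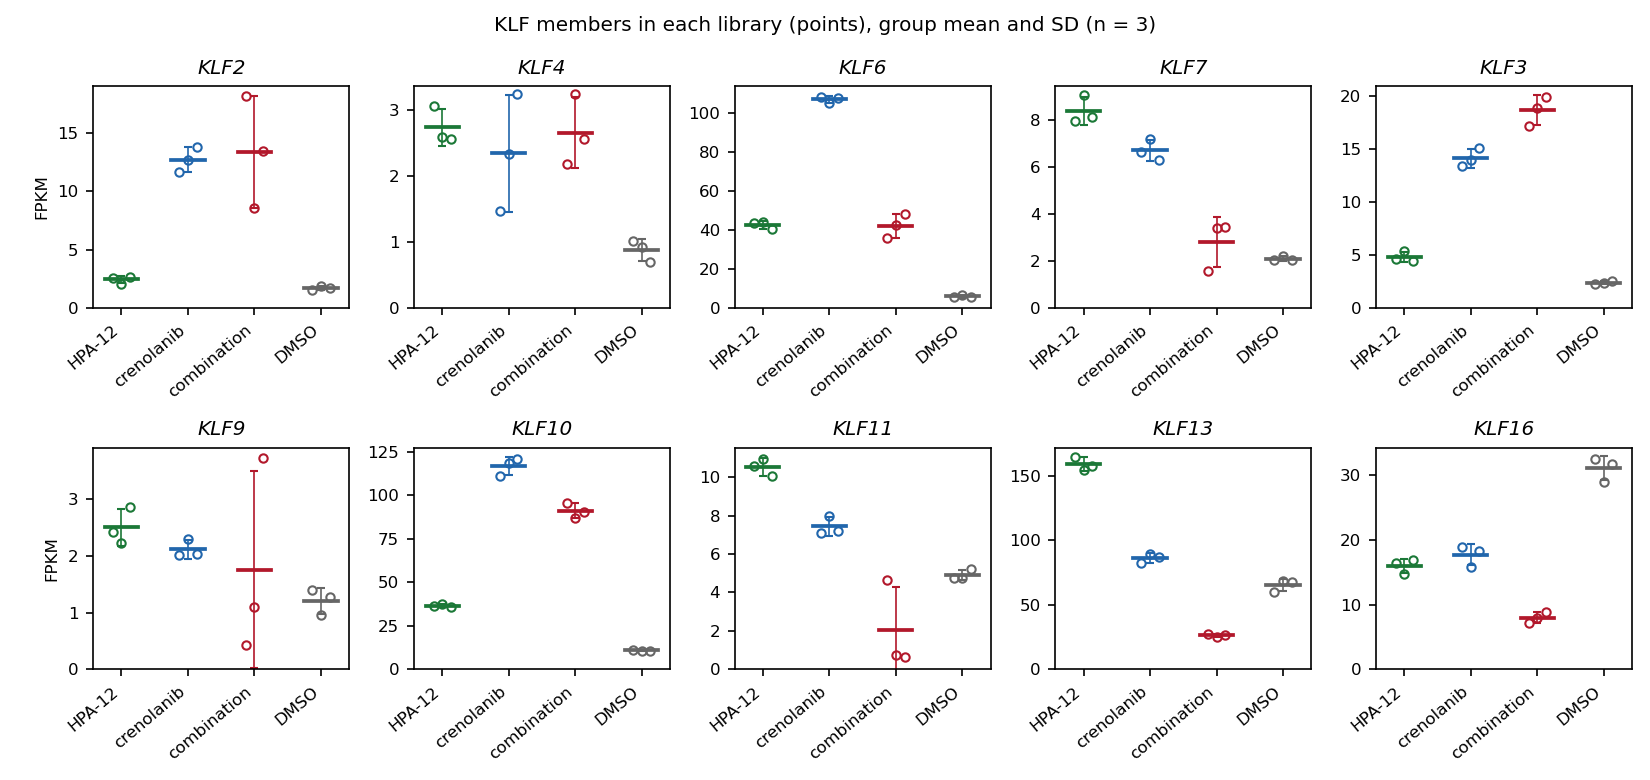
FPKM of each factor, on an axis of its own from 0, in each of 3 libraries (points) of the HPA-12, crenolanib, combination and DMSO groups, with group mean and SD. KLF6 and KLF10 peak under crenolanib at means of 107 and 117 FPKM, KLF13 under HPA-12 at 159 FPKM, and KLF16 in DMSO at 31.1 FPKM, and the points of KLF2, KLF9 and KLF11 spread widely within the combination.

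Of the SIN3-binding factors, KLF10 changed most. It is the TGF-beta-inducible early gene, a repressor of proliferation. KLF10 was at 36.1, 37.5 and 35.8 FPKM in HPA-12, 111, 119 and 121 FPKM in crenolanib, 95.6, 86.9 and 90.5 FPKM in combination, and 11.4, 10.5 and 10.7 FPKM in DMSO libraries. The 4 groups did not overlap, and crenolanib libraries were highest. It was higher than in DMSO by 1.66 (SE 0.06, adjusted p = 3.20e-09) in HPA-12, 3.31 (SE 0.06, adjusted p = 3.53e-12) in crenolanib and 2.95 (SE 0.06, adjusted p = 4.90e-12) in the combination. Combination against crenolanib was -0.36 (adjusted p = 3.97e-04) as deposited and 0.28 to 0.40, called in the other direction, under the 3 scalings, so the order of these groups rests on the scaling.

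KLF13, which activates the chemokine gene CCL5 in T cells, was the most abundant member in DMSO and moved both ways. Its levels were 165, 155 and 157 FPKM in HPA-12, 82.3, 89.4 and 86.7 FPKM in crenolanib, 27.5, 25.3 and 26.9 FPKM in combination, and 60.1, 68.5 and 68.0 FPKM in DMSO libraries. All groups were apart: either compound alone lay above DMSO, and their combination lay below it. KLF13 differed from DMSO by 1.27 (SE 0.07, adjusted p = 3.47e-08) in HPA-12, 0.39 (SE 0.07, adjusted p = 3.71e-04) in crenolanib and -1.27 (SE 0.07, adjusted p = 8.84e-09) in the combination. Under the 3 scalings the combination value was -0.59 to -0.21, lower and called in each, and the crenolanib value reached 0.71 with mitochondrial genes left out.

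KLF16, a GC-box factor first described in mouse at a dopamine receptor promoter, was the only one of the 10 lower than DMSO in all 3 treated groups. It stood at 16.4, 14.8 and 16.9 FPKM in HPA-12, 18.9, 15.8 and 18.2 FPKM in crenolanib, 7.13, 7.98 and 8.87 FPKM in combination, and 32.5, 28.9 and 31.7 FPKM in DMSO libraries. Every treated library was below every DMSO library, and the single agents overlapped. The differences from DMSO were -0.91 (SE 0.10, adjusted p = 1.91e-05) in HPA-12, -0.78 (SE 0.10, adjusted p = 5.96e-05) in crenolanib and -1.84 (SE 0.10, adjusted p = 1.78e-08) in the combination, the last being -1.20 to -0.83 and called under the 3 scalings. The crenolanib value was -0.47 with mitochondrial genes left out, also called.

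KLF11, the second TGF-beta-inducible factor of the family, was measured least firmly in the combination. Its levels were 10.6, 10.9 and 10.0 FPKM in HPA-12, 7.12, 7.99 and 7.19 FPKM in crenolanib, 4.65, 0.773 and 0.662 FPKM in combination, and 4.77, 4.76 and 5.21 FPKM in DMSO libraries. HPA-12 was above crenolanib and crenolanib above DMSO without overlap, while combination library 1 was close to DMSO and the other two were far below it. KLF11 was called higher in HPA-12 by 0.96 (SE 0.35, adjusted p = 0.0400) and lower in the combination by -1.21 (SE 0.35, adjusted p = 0.00893), and crenolanib differed by 0.51 (adjusted p = 0.239). The HPA-12 call was lost under the 3 scalings, with a pseudocount of 0.1, with no filter on low values and without any 1 library of HPA-12, crenolanib or DMSO (adjusted p 0.0542 to 0.0989). It held in 8 of 22 alternatives, each omission of a combination library among them, with a lowest adjusted p of 8.70e-08. Without combination library 1, 2 or 3, 6590, 6606 and 6594 of all genes were called in HPA-12 against DMSO, where the main fit called 5652. The combination call was lost under the 3 scalings (-0.76 to -0.48) and in the fit of combination and DMSO alone (adjusted p = 0.0592), and the value was -1.78 without combination library 1. Crenolanib passed the test without the combination libraries (adjusted p = 4.82e-05), and also without combination library 1 alone (5.49e-04). These fits called 8617 and 7194 of all genes in crenolanib against DMSO, where the main fit called 6274.

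KLF9, a factor induced by glucocorticoid and thyroid hormone, did not pass the test in any of the 6 pairs of groups, though 4 of them passed without combination library 3. It was at 2.41, 2.23 and 2.86 FPKM in HPA-12, 2.01, 2.30 and 2.03 FPKM in crenolanib, 0.437, 1.10 and 3.72 FPKM in combination, and 1.40, 0.949 and 1.27 FPKM in DMSO libraries. HPA-12 and crenolanib libraries lay above all DMSO libraries, and the combination ran from below DMSO to above every other library, on an estimated 9.95, 28.9 and 88.5 reads. The differences from DMSO were 0.67 (adjusted p = 0.108) in HPA-12, 0.50 (adjusted p = 0.211) in crenolanib and 0.14 (adjusted p = 0.707) in the combination, with an SE of 0.33. Without the combination libraries, HPA-12 and crenolanib both passed (adjusted p = 1.30e-04 and 0.00112), likewise without combination library 3 alone (0.00347 and 0.0153), where the combination stood at -0.34 (adjusted p = 0.0987). That library left out, the combination was lower by -0.84 than crenolanib (adjusted p = 0.00125) and by -1.01 than HPA-12 (adjusted p = 3.06e-04), against -0.36 and -0.53 with it, neither called. Under the 3 scalings, with all libraries, the combination differed by 0.02 to 0.10 from crenolanib and -0.08 to 0.13 from HPA-12, none called. HPA-12 against DMSO also passed without combination library 1 (adjusted p = 0.0337), and both single agents did with a spread per group or in fits of the compared groups alone. Over all genes, calls against DMSO were 5652 in HPA-12 and 6274 in crenolanib in the main fit. They were 8136 and 8617 without the combination libraries, and 6594 and 7129 without combination library 3.

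Set against DMSO, HPA-12 gave 7 members higher, 1 lower and 2 not called, where 50.7% of all genes were called, 27.7% higher and 23.0% lower. Crenolanib gave 7 higher, 1 lower and 2 not called, where 56.3% of all genes were called, 27.4% higher and 28.9% lower. The combination gave 5 higher, 3 lower and 2 not called, where 71.3% of all genes were called, 14.8% higher and 56.5% lower. Under each of the 3 scalings the combination gave 6 members higher and 2 lower, and the genes called were 3067 to 4153 higher and 2380 to 3743 lower, against 1652 and 6299 as deposited. HPA-12 gave 6 higher there. In each comparison the share of members that rose was above the share of all genes that did. The members were chosen with earlier results of these data known, so this gap is no test of the family. Member medians were 0.98 in HPA-12, 1.06 in crenolanib and 0.60 in the combination, against 0.09, -0.04 and -0.62 over all genes. KLF3, KLF4, KLF6 and KLF10 were higher in all 3 comparisons, a pattern held by 6.56% of all genes tested. These comparisons share the DMSO libraries. The libraries of the 2 groups did not overlap for 10 of 10 members in HPA-12 (79.5% of all genes), 10 of 10 in crenolanib (77.8%) and 8 of 10 in the combination (71.4%). The lowest mean was in DMSO for 7 members (19.7% of all genes), and in the combination for KLF11, KLF13 and KLF16 (60.3% of all genes).

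**Figure D3:**
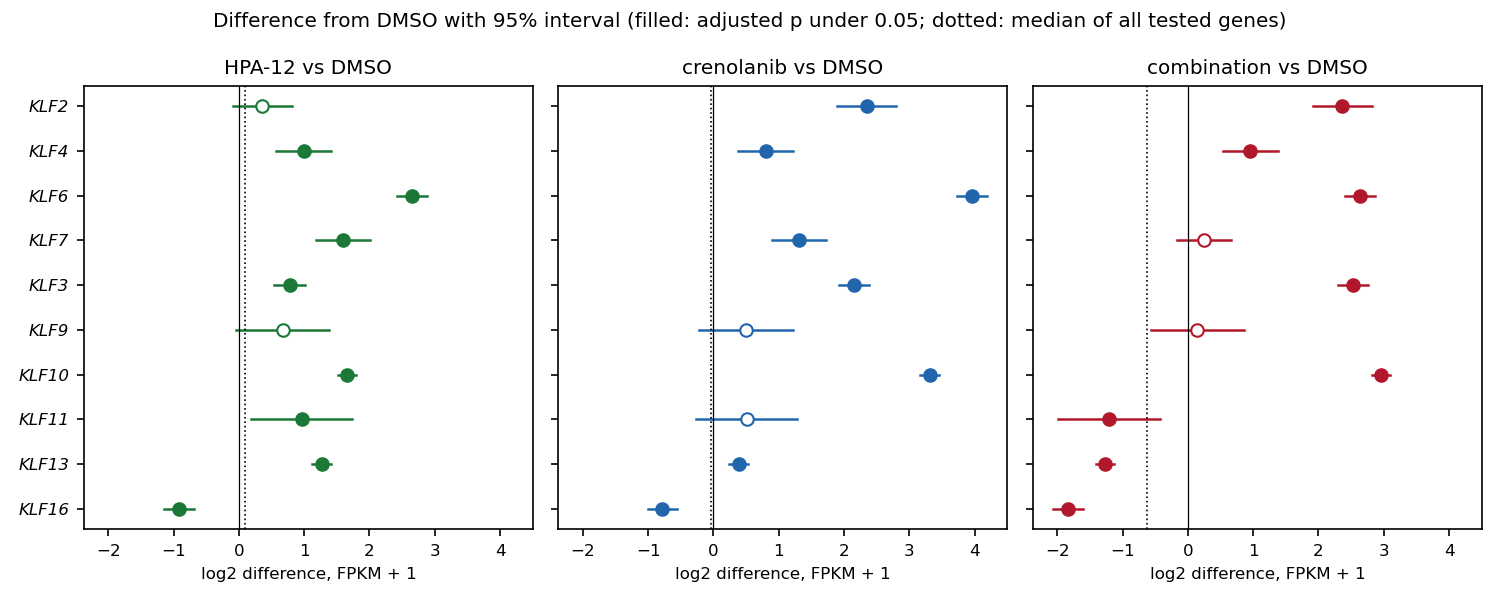
Differences from DMSO in log2(FPKM + 1) with 95% intervals for HPA-12, crenolanib and the combination, filled where the adjusted p was under 0.05, with a dotted line at the median of all tested genes. KLF6 reaches 3.97 under crenolanib, KLF16 lies left of 0 in each panel, and KLF13 lies right of 0 in the first 2 panels and at -1.27 in the combination.

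Adding HPA-12 to crenolanib left 1 member higher and 6 lower than with crenolanib alone (70.0% of all genes called, 8.78% higher and 61.2% lower). KLF3 was the one that rose. KLF11 fell by 1.72 (adjusted p = 0.00109), KLF13 by 1.66 (adjusted p = 7.44e-09), KLF6 by 1.33 (adjusted p = 6.61e-07), KLF7 by 1.06 (adjusted p = 3.90e-04) and KLF16 by 1.05 (adjusted p = 3.96e-06) on the log2 scale. The member median, -0.71, was close to that of all genes, -0.63. Under the scalings 4 members were higher and 4 or 5 lower: KLF2 (0.62 to 0.73) and KLF4 (0.63 to 0.73) joined KLF3 and KLF10 as higher, and KLF7 (-0.57 to -0.48) kept its call in 1 of 3. KLF13 (-1.03 to -0.92), KLF6 (-0.70 to -0.59), KLF16 (-0.47 to -0.36) and KLF11 (-1.31 to -1.26) stayed lower and called, and the median of all genes was -0.16 to -0.06.

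Adding crenolanib to HPA-12 left 3 members higher and 4 lower than with HPA-12 alone (72.3% of all genes called, 14.5% higher and 57.8% lower). KLF2 rose by 2.01 (adjusted p = 3.62e-06), KLF3 by 1.76 (adjusted p = 3.43e-08) and KLF10 by 1.29 (adjusted p = 5.83e-09). KLF13 fell by 2.54 (adjusted p = 2.99e-11), KLF11 by 2.17 (adjusted p = 1.61e-04), KLF7 by 1.35 (adjusted p = 4.79e-05) and KLF16 by 0.92 (adjusted p = 6.99e-06). The KLF16 call was lost under every scaling (-0.26 to 0.04), that of KLF7 with mitochondrial genes left out (-0.50, adjusted p = 0.0619), and KLF4 and KLF6 became higher in all of them. The other ranges were 2.64 to 2.91 for KLF2, 2.42 to 2.72 for KLF3, 2.01 to 2.33 for KLF10, -1.83 to -1.51 for KLF13 and -1.68 to -1.44 for KLF11, all called, with a median of all genes of -0.10 to 0.15.

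Between the single agents, crenolanib against HPA-12, 4 members were higher and 1 lower (41.2% of all genes called, 19.5% higher and 21.6% lower). KLF2 was higher by 1.99 (adjusted p = 2.08e-05), KLF10 by 1.65 (adjusted p = 3.05e-09), KLF3 by 1.38 (adjusted p = 1.63e-06) and KLF6 by 1.31 (adjusted p = 2.23e-06), and KLF13 was lower, at -0.88 (adjusted p = 1.34e-06). KLF7 differed by -0.29 and KLF11 by -0.45, both not called here and called without the combination libraries (adjusted p = 0.00957 and 2.05e-04), without combination library 1 alone, with a spread per group or in the fit of the 2 groups alone. In this order, these fits called 7581, 5722, 7239 and 7147 of all genes between the single agents, where the main fit called 4589. KLF4, KLF9 and KLF16 differed by -0.19, -0.17 and 0.13, not called, and KLF16 was higher by 0.41 and called (adjusted p = 0.0128) with mitochondrial genes left out.

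The interaction asks whether HPA-12 did the same with crenolanib present as without it, and is 0 where the 2 log2 effects add. It was negative and called for 7 members and positive and called for 0 (65.4% of all genes called, 15.4% positive and 50.0% negative, with a median of -0.65). Under the 3 scalings the median over all genes was -0.22 to -0.11, and 2605 to 2860 genes were positive and 3128 to 3639 negative among those called. KLF6 had the largest value, -3.99 (SE 0.15, adjusted p = 2.73e-09): HPA-12 moved it by -1.33 with crenolanib and by 2.66 alone. KLF13 followed at -2.93 (SE 0.09, adjusted p = 9.92e-10), with -1.66 in the presence of crenolanib and 1.27 alone. KLF11 was at -2.68 (SE 0.50, adjusted p = 5.85e-04), KLF7 at -2.66 (SE 0.27, adjusted p = 4.81e-06) and KLF10 at -2.02 (SE 0.09, adjusted p = 1.04e-08). These 5 remained negative and called under the 3 scalings, at -3.38 to -3.23 for KLF6, -2.36 to -2.22 for KLF13 and -1.42 to -1.27 for KLF10. KLF4 at -0.84 (adjusted p = 0.0172) and KLF3 at -0.40 (adjusted p = 0.0341) lost their calls there and with a spread per group, KLF3 with a change of sign under the scalings. That of KLF3 was also lost without HPA-12 library 2, crenolanib library 2 or 3, or DMSO library 1 or 2. KLF2 (-0.34), KLF9 (-1.03) and KLF16 (-0.14) were not called. KLF2 passed without combination library 1 (-0.58, adjusted p = 0.0414), but was positive, at 0.24 to 0.38 and not called, under the 3 scalings. KLF9 passed without combination library 3 (-1.51, adjusted p = 1.67e-04) and with a spread per group (adjusted p = 0.0228), and stood at -0.64 to -0.53, not called, under the scalings, where KLF16 was positive and called (0.38 to 0.51).

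**Figure D4:**
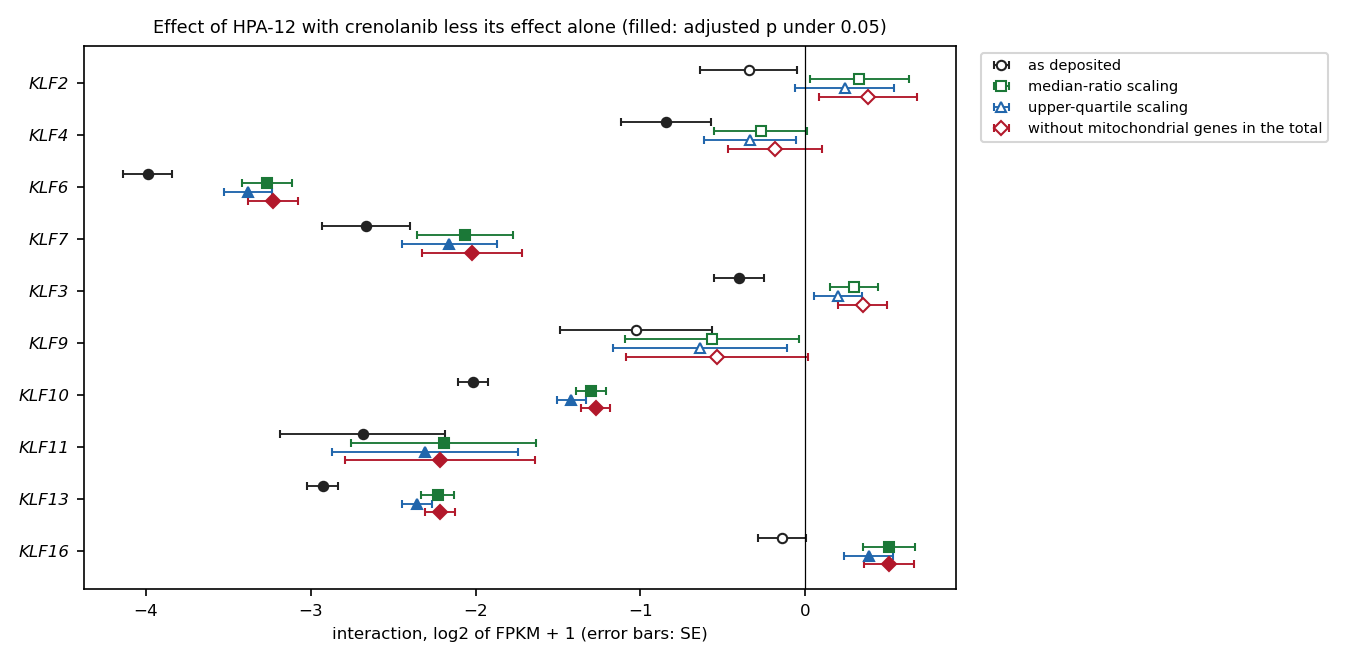
Interaction of HPA-12 and crenolanib in log2(FPKM + 1) with its SE for each factor, as deposited (black) and under the 3 scalings, filled where the adjusted p was under 0.05. KLF6, KLF7, KLF10, KLF11 and KLF13 stay left of 0 with filled markers in all 4. KLF2, KLF3 and KLF16 cross 0 between the deposited and the rescaled values.

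Genes with the most similar profile over the 12 libraries were sought among 6230 genes averaging 5 FPKM or more, by the root mean square difference of log2 values centred on each gene's mean. KLF13 had the closest, TRIM56 (0.0907) and MYO9B (0.108), set against a spread of KLF13 about its own mean of 0.914. MYO9B averaged 121 FPKM in HPA-12, 56.6 in crenolanib, 18.7 in combination and 42.5 in DMSO libraries. KLF16 lay next to ARHGDIB (0.112) and ANKRD27 (0.119), against a spread of 0.659. Immediate early and NF-κB feedback genes were nearest to others: NR4A1 (0.210) and JUNB (0.222) to KLF3, NFKBIA (0.263) and JUNB (0.299) to KLF2. KLF10 lay next to CDKN1A (0.326) and RGCC (0.352), and KLF6 next to DUSP16 (0.341) and SERPINB2 (0.360). The nearest to KLF7 were ZNF655 (0.167) and NFKBID (0.178), to KLF4 HSD17B11 and CD46 (0.218 and 0.223), to KLF9 TRIP4 and RAP2B (0.208 and 0.242), and to KLF11 RASSF3 and CEP19 (0.224 and 0.261). The members' own spreads were 0.447 for KLF4, 0.456 for KLF9, 0.706 for KLF7 and 0.909 for KLF11. They were 1.03 for KLF3, 1.12 for KLF2, 1.30 for KLF10 and 1.44 for KLF6. Beside their spread, KLF4 and KLF9 had the loosest matches. These distances share all libraries and carry no test.

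The other 17 KLF and SP factors were mostly silent, with 6 passing the filter and KLF14, KLF17 and KLF18 listed at 0 in all libraries. Of the 6, 3 rose in HPA-12, 4 in crenolanib and 3 in the combination, where 2 fell as deposited and 0 under each scaling. Their medians were 0.46, 0.99 and 0.25, against 0.09, -0.04 and -0.62 over all genes. As deposited, 27.7% of all genes rose in HPA-12, 27.4% in crenolanib and 14.8% in the combination, where 56.5% fell. Every listed gene named with a difference here and below was called, at limma adjusted p of at most 0.00691. KLF5 averaged 0.414 ± 0.116 FPKM in HPA-12, 7.01 ± 0.815 in crenolanib, 9.83 ± 1.31 in combination and 0.641 ± 0.225 in DMSO libraries (SD, n = 3 each), higher by 2.29 under crenolanib and 2.72 in the combination. KLF1, the erythroid factor of the family, averaged 1.55 ± 0.210 FPKM in HPA-12, 7.19 ± 1.79 in crenolanib, 37.7 ± 14.0 in combination and 1.16 ± 0.162 in DMSO libraries, higher by 1.90 under crenolanib and 4.10 in the combination. SP1, the general GC-box activator that shares the family's sites, was higher by 0.99 in HPA-12 and lower by -0.98 in the combination, a call lost under every scaling (-0.34 to 0.03). SP3 was higher by 0.79 in HPA-12 and 1.28 in crenolanib, and SP2 by 0.69 in HPA-12.

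The factors' partners and inputs were counted as lists. As deposited, 27.7% of all genes rose and 23.0% fell in HPA-12, 27.4% and 28.9% in crenolanib, and 14.8% and 56.5% in the combination. These shares also stand beside the list counts of the next paragraphs. Genes were named by smallest p, so a gene named for 1 group may differ from DMSO in others. Of 10 corepressors and coactivators, 3 rose and 1 fell in HPA-12, 2 rose and 3 fell in crenolanib, and 1 rose and 8 fell in the combination, the last being 2 to 4 higher and 1 to 4 lower under the scalings, and crenolanib 2 to 4 higher and 2 or 3 lower. The list medians were 0.12, -0.04 and -0.84 in these 3 groups, near the 0.09, -0.04 and -0.62 of all genes. KAT2B, an acetyltransferase, was higher by 2.30 under crenolanib and 4.29 in the combination, where CTBP1, the corepressor KLF3 binds, was lower by -1.40 (-0.76 to -0.39 under the scalings, called in each). HDAC1 was lower by -0.52 under crenolanib and -1.13 in the combination, the second call holding in 2 of 3 scalings, and HDAC3 by -0.89 under crenolanib. In HPA-12, CREBBP and EP300 were higher by 0.88 and 0.70, and HDAC2 lower by -0.65. Of the 9 ERK5-MEF2 and FOXO genes that act on KLF2 and KLF4, 5 rose and 0 fell in HPA-12, 5 rose and 1 fell in crenolanib, and 3 rose and 5 fell in the combination (4 to 6 higher and 1 or 2 lower under the scalings, where crenolanib had 4 to 6 higher and 0 or 1 lower). This list had medians of 0.50, 0.62 and -0.39, against the same all-gene medians. FOXO3 was higher by 1.39 in HPA-12, 1.78 in crenolanib and 1.54 in the combination. MAP3K2 was higher by 1.42 and MEF2C by 0.67 in HPA-12, and by 1.76 and 0.66 in crenolanib. MEF2D and MAP3K3 were lower in the combination by -1.56 and -1.25, the call of MAP3K3 holding in 1 of 3 scalings.

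Genes known as targets of KLF2 and KLF4 did not move one way: of 7, 2 rose and 3 fell in each treated group, with 1 rising in crenolanib under the scalings. The medians were 0.05 in HPA-12, -0.29 in crenolanib and -0.08 in the combination, against 0.09, -0.04 and -0.62 over all genes. CDKN1A, the cell-cycle inhibitor p21, averaged 17.3 ± 0.448 FPKM in HPA-12, 40.7 ± 1.86 in crenolanib, 58.0 ± 6.71 in combination and 4.05 ± 0.446 in DMSO libraries. It was higher than in DMSO by 1.86 in HPA-12, 3.05 in crenolanib and 3.54 in the combination. THBD, thrombomodulin, a gene KLF2 raises in endothelium, was lower by -2.00 in HPA-12, -1.55 in crenolanib and -3.19 in the combination. NOS3 was lower by -1.20 in crenolanib and ITGB7 by -2.09 in the combination. In all treated groups NOS3 was low, averaging 0.367 FPKM in HPA-12, 0.378 in crenolanib, 0.223 in combination and 2.16 in DMSO libraries.

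Of 12 TGF-beta receptors and early response genes, 5 rose and 2 fell in HPA-12, 4 rose and 1 fell in crenolanib, and 2 rose and 10 fell in the combination (2 to 4 higher and 2 to 7 lower under the scalings, where crenolanib had 4 to 7 higher). The medians were 0.34, 0.08 and -1.01 in these groups, against 0.09, -0.04 and -0.62 over all genes. SKIL, a feedback repressor of SMADs, was higher by 2.76 in HPA-12 and 3.09 in crenolanib. Its means were 40.8 FPKM in HPA-12, 50.8 in crenolanib, 12.6 in combination and 5.10 in DMSO libraries. TGFBR2 and SKI were higher by 0.67 and 0.60 in HPA-12. TGFB1 itself was lower by -0.83 in crenolanib and -1.48 in the combination, where SKI was lower by -1.56. Of 6 tested glucocorticoid receptor genes and targets, which had medians of 1.45, 2.12 and 1.68, 5 rose in each treated group and 1 fell in HPA-12 and in the combination, that in the combination not being called under the scalings. TSC22D3, the glucocorticoid-induced leucine zipper, was higher by 3.27 in HPA-12, 2.79 in crenolanib and 2.20 in the combination. DUSP1 was higher by 2.47, 3.55 and 4.62 in these groups, NR3C1, the receptor, by 2.58 in crenolanib, SGK1 by 1.70 in HPA-12 and PER1 by 1.70 in the combination. These last genes were not particular to the group named. SGK1 averaged 5.27 FPKM in HPA-12, 5.10 in crenolanib, 5.11 in combination and 0.924 in DMSO libraries. In the same order, PER1 averaged 7.16, 9.23, 11.4 and 2.79 FPKM, and NR3C1 13.4, 36.8, 13.7 and 5.31 FPKM.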

How the data were processed

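RNA of MV-4-11 cells was sequenced in 12 libraries of 4 groups. The deposited table holds FPKM that the authors had already scaled for gene length and library size (unit per the file headers), a column for each library. Information on the aligner, counter, genome build and annotation was not given in the sources used here. Columns were matched to libraries by name, and the 2 spellings of the short name of crenolanib in titles and columns were read as 1 compound. Read counts were not used here, so no count test was run. Depth was estimated from the FPKM of low genes and GENCODE 29 gene lengths. Of values under 20 estimated reads, 30.9% (combination) to 39.0% (DMSO) came out whole within 0.01 read on average, so depths and reads per gene are estimates, with no interval.

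Genes that reached 1 FPKM in 3 or more libraries (11149 of 20036) were tested on log2(FPKM + 1), a scale that understates changes of low genes. A single limma 3.58.1 fit (R 4.3.3, moderated with trend and robust options, tested on simulated data) held all groups. P-values are two-sided and Benjamini-Hochberg adjusted over all genes, with a threshold of 0.05 and differences given as treated minus DMSO, combination minus single agent, or crenolanib minus HPA-12. The alternatives were 3 scalings, a pseudocount of 0.1, other filters (none, or a mean of at least 5 FPKM), a spread per group, the compared groups alone, a replicate block and each library left out. A fit without the combination libraries was added after seeing the data. Promoter letters are from RefSeq (GRCh38.p14). All 10 members were named throughout, with the 2 nearest profiles per member and up to 3 genes per list with the smallest p in each comparison with DMSO; some genes this rule names are not reported here. The members and lists were chosen with earlier results of these data known.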

Additional observations from a re-analysis of the deposited data

Results flagged for a closer look

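For 7 of the 10 factors, the effect of HPA-12 differed with crenolanib present from its effect alone by the interaction test (limma, adjusted p under 0.05). The difference, in log2(FPKM + 1), was -3.99 for KLF6, -2.93 for KLF13, -2.68 for KLF11, -2.66 for KLF7, -2.02 for KLF10, -0.84 for KLF4 and -0.40 for KLF3. Of all genes tested, 50.0% had a negative and called interaction, and the median was -0.65; under the 3 scalings it was -0.22 to -0.11, with 2605 to 2860 genes positive and 3128 to 3639 negative among those called. KLF6, KLF7, KLF10, KLF11 and KLF13 moved in opposite directions: in each, the 3 combination libraries lay below the 3 crenolanib libraries, and the 3 HPA-12 libraries above the 3 DMSO libraries. For KLF10 the combination was higher than crenolanib under the 3 scalings. There the fall of KLF7 from crenolanib to combination kept its call in 1 of 3, and the KLF11 rise under HPA-12 in 0 of 3. The interactions of KLF4 and KLF3 were called in 0 of 3, that of KLF3 with a change of sign. Groups of 3 libraries are too small for the search for single outlying samples.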

How the results depend on the processing

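The number of members called kept within 1.5 times of its value in all 7 comparisons under every alternative run. It was 6 to 10 in HPA-12 against DMSO (8 as reported), 6 to 10 in crenolanib against DMSO (8), 7 to 9 in the combination against DMSO (8), and 5 to 8 for the interaction (7). With each library left out in turn these counts were 7 to 9, 8 to 9, 8 to 9 and 6 to 8. Of 70 member values, 41 kept direction and call in every alternative. KLF4, KLF7 and KLF9 averaged under 5 FPKM and have no value under that filter, nor has the interaction in fits of the compared groups alone. Counts under that filter are thus not out of 10, and the low ends of 6 for HPA-12 and crenolanib against DMSO came from it. Changes of sign in values called as reported or under the alternative came from the 3 scalings. In the order median ratio, upper quartile and mitochondrial genes left out, combination against crenolanib was 0.32, 0.28 and 0.40 for KLF10. Combination against HPA-12 was 0.50, 0.52 and 0.75 for KLF4 and 0.68, 0.71 and 1.01 for KLF6, and 0.043 for KLF16 with mitochondrial genes left out. The interaction was 0.30, 0.20 and 0.35 for KLF3 and 0.51, 0.38 and 0.51 for KLF16. The cause was not tested beyond the scaling itself. The share of higher among all called genes, combination against DMSO, was 20.8% as deposited and 45.0%, 49.7% and 63.6% under these scalings; for crenolanib against DMSO it was 48.7%, 49.1%, 58.6% and 69.6%.

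With the replicate number as a block, 8 members were called against DMSO in each treated group, 7 in either comparison of the combination with a single agent, 5 between single agents and 7 for the interaction, the same as without it. Libraries with the same number did not deviate together: the correlations of 18 such pairs were -0.03 to 0.07, so the numbers were not taken to pair samples. Without HPA-12 library 2, crenolanib library 2 or 3, or DMSO library 1 or 2, the KLF3 interaction missed the threshold (-0.41 to -0.33). Without combination library 1 that of KLF2 passed it (-0.58), and without combination library 3 that of KLF9 did (-1.51). Under the 3 scalings the KLF2 interaction was 0.24 to 0.38, a change of sign, and not called. KLF9 and KLF11 had the fewest estimated reads in any library, 9.95 and 14.0, both in the combination; what depth did to their values was not tested.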

Other observations

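The combination libraries agreed closely for some members and not for others. KLF13 had 27.5, 25.3 and 26.9 FPKM in the 3 combination libraries. KLF9 had 0.437, 1.10 and 3.72 FPKM and KLF11 had 4.65, 0.773 and 0.662 FPKM, so the library that was lowest for KLF9 was the highest for KLF11. KLF2 had 18.1, 8.53 and 13.5 FPKM there, on an estimated 161, 87.3 and 125 reads.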
